A study of Mus musculus with 24 samples.

Results

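The secreted frizzled-related proteins are a family of 5 genes in the mouse, Sfrp1, Sfrp2, Sfrp4, Sfrp5 and Frzb, the last of which is also called Sfrp3. Members were found by gene symbol in the annotation of the array platform. All 5 were measured, among 22180 genes with exactly 1 symbol. Where a gene had several probe sets, that with the highest mean over the 24 arrays stood for it, and of the members Sfrp2 alone had a second probe set. The arrays measured RNA of cells taken with magnetic beads through Cd105 and Cd144, surface proteins of endothelium, from 3 kinds of papain-dissociated mouse tissue of mixed strain background, with 8 arrays each, called biological replicates in the labels. The Wnt group came from medulloblastomas of mice that carried Blbp-Cre, a Ctnnb1 allele labelled +/Exon3 flox, Trp53 flox/flox and Pik3ca +/flox. The Shh group came from medulloblastomas of mice labelled Ptch+/- and Ink4c-/-, and the hindbrain group from wild-type adults. The labels give neither the ages of the tumour-bearing mice nor whether animals were pooled. Blbp is a gene of radial glia and other neural progenitors, so the Cre of the Wnt model is driven in the neural lineage, whereas the labels name no Cre for the Shh model.

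Secreted frizzled-related proteins carry a cysteine-rich domain like that with which frizzled receptors bind Wnt ligands, followed by a netrin-like domain, and no membrane anchor. They bind Wnt proteins outside the cell and mostly dampen signalling, although enhancement and spreading of Wnt signals have been described too. Sfrp1, Sfrp2 and Sfrp5 are close relatives that stand in for each other in the mouse embryo, while Sfrp4 and Frzb form another branch. Wnt signalling through beta-catenin in brain endothelium is known to build and keep the blood-brain barrier. The comparisons ask how the expression of these inhibitors differs between sorted cells of each tumour and of normal hindbrain.

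Transcripts of the sort antigens were bright on every array. Cdh5, which encodes Cd144, lay between 11.84 and 12.79 on Wnt arrays, 12.63 and 13.03 on Shh arrays and 12.70 and 12.99 on hindbrain arrays (deposited log2 values). Array medians ran from 5.97 to 6.18. Background was read from 92 control probe sets that match ERCC spike-in RNA rather than mouse genes: their means had a 95th percentile of 5.24, and values at or below it are called dim here. Cdkn2c, which encodes Ink4c, lay between 7.37 and 8.20 on arrays labelled Ink4c-/-, against 6.49 and 7.71 on hindbrain arrays. Whether its probe set lies within the deleted stretch is unknown, so this value is no check of the genotype. Counts below should be read against the share of all genes that passed the same test, since much of the transcriptome differed between the groups.

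Sfrp1 and Frzb were higher in both kinds of tumour than in hindbrain, Sfrp2 and Sfrp5 rose in the Wnt arrays, and Sfrp4 rose in the Shh arrays. None of the 5 members passed the test as lower in any comparison. Against hindbrain, 4 of 5 rose in Wnt arrays, where 23.2% of all genes were called higher, and 3 of 5 rose in Shh arrays, where 18.9% were. The shares of all genes called lower were 22.0% in Wnt and 18.9% in Shh arrays, against 0 of 5 members in each. The median log2 fold change of the 5 members was 1.50 in Wnt and 0.85 in Shh arrays against hindbrain, beside -0.023 and -0.020 over all genes. These comparisons share the hindbrain arrays. Calls rest on limma's moderated test over all genes, with p-values adjusted by Benjamini-Hochberg and a threshold of 0.05, values after ± are standard errors for fold changes and standard deviations (n = 8) for means, and folds are 2 to the power of the log2 change. In bulk RNA, fewer cells of a type and less RNA per cell cannot be told apart.

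**Figure D1:**
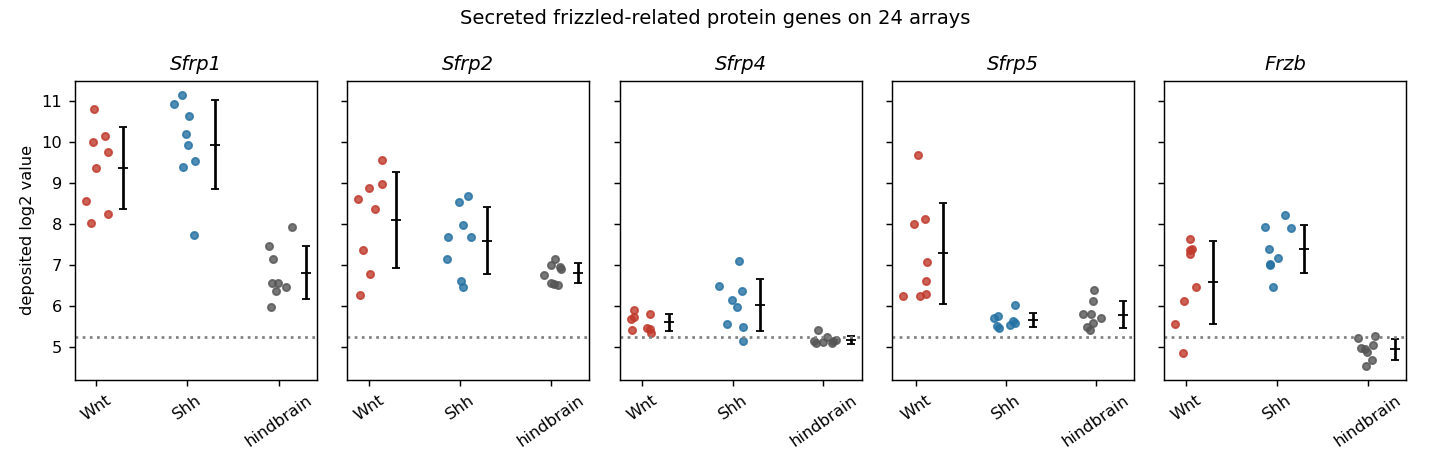
Deposited log2 values of the 5 genes (vertical axis) on 8 Wnt, 8 Shh and 8 hindbrain arrays; points are arrays, bars give the mean and SD, and the dotted line is the 95th percentile of the ERCC control means (5.24). Frzb on Shh arrays and Sfrp1 on Wnt arrays lie wholly above their hindbrain values, and Sfrp5 reaches its highest value, 9.69, on a Wnt array.

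Sfrp1 encodes a Wnt-binding antagonist of the neural tube and many other tissues. On Wnt arrays it had a lowest value of 8.02, a median of 9.56 and a highest value of 10.81, on Shh arrays 7.73, 10.08 and 11.16, and on hindbrain arrays 5.99, 6.56 and 7.94 (log2). All 8 Wnt arrays and 7 of 8 Shh arrays lay above the highest hindbrain array, and Shh replicate 3 was the array that overlapped. Groups did not overlap, with the tumour higher, in 10.6% of all genes for Wnt and 7.13% for Shh against hindbrain. Sfrp1 rose by 2.55 ± 0.43 in Wnt against hindbrain, a 5.84-fold rise (limma, adjusted p = 2.58e-05). In Shh against hindbrain it rose by 3.13 ± 0.43, an 8.73-fold rise (limma, adjusted p = 3.40e-06). The order of the means was Shh (9.94 ± 1.09), Wnt (9.36 ± 1.0) and hindbrain (6.82 ± 0.645), and Wnt and Shh did not differ beyond their spread.

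Frzb encodes a Wnt inhibitor first known from cartilage and the early embryo. It was dim on 7 of 8 hindbrain arrays, so that the size of its rise is uncertain. Its lowest, median and highest values were 4.86, 6.87 and 7.64 on Wnt arrays, 6.46, 7.28 and 8.23 on Shh arrays and 4.54, 4.96 and 5.27 on hindbrain arrays. Every Shh array lay above every hindbrain array, and 7 of 8 Wnt arrays did, with Wnt replicate 3 (4.86) inside the hindbrain range. The rise was 2.44 ± 0.32 in Shh against hindbrain, 5.43-fold (limma, adjusted p = 1.63e-06), and 1.64 ± 0.32 in Wnt against hindbrain, 3.12-fold (limma, adjusted p = 0.000144).

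Sfrp2 encodes a protein of mesenchyme and developing organs that also acts on procollagen processing by Bmp1 in mice. Its lowest, median and highest values were 6.27, 8.50 and 9.57 on Wnt arrays, 6.48, 7.69 and 8.68 on Shh arrays and 6.52, 6.84 and 7.16 on hindbrain arrays. Above the highest hindbrain array lay 6 of 8 Wnt arrays and 5 of 8 Shh arrays, and in each tumour the lowest array lay below the lowest hindbrain array. Sfrp2 rose by 1.31 ± 0.39 in Wnt against hindbrain, 2.47-fold (limma, adjusted p = 0.00736). In Shh against hindbrain the difference was 0.80 ± 0.39 (95% interval 0 to 1.60, limma, adjusted p = 0.11), and it passed when those groups were fitted alone (adjusted p = 0.0263).

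Probe sets of Sfrp2 disagreed. The values above are from probe set 17398557. The second, 17406275, was close to the dim range in all groups, with means of 5.41 ± 0.344 in Wnt, 5.46 ± 0.348 in Shh and 5.24 ± 0.155 in hindbrain arrays, and gave 0.18 ± 0.14 in Wnt against hindbrain (limma, adjusted p = 0.345) and 0.22 ± 0.14 in Shh against hindbrain (limma, adjusted p = 0.238). The rise of Sfrp2 thus rests on the brighter probe set, and was 0.74 with the mean of both.

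Sfrp5 encodes an antagonist best known in mouse fat tissue, where it opposes Wnt5a. Its lowest, median and highest values were 6.25, 6.85 and 9.69 on Wnt arrays, 5.47, 5.62 and 6.02 on Shh arrays and 5.42, 5.75 and 6.39 on hindbrain arrays. The Shh and hindbrain arrays were above the dim range but close to it, so that the size of its changes is uncertain. Wnt arrays were high and widely spread, whereas the Shh values lay within or close to the hindbrain range, and 5 of 8 Wnt arrays exceeded the highest hindbrain array. Sfrp5 rose by 1.50 ± 0.35 in Wnt against hindbrain, 2.83-fold (limma, adjusted p = 0.000809). In Shh against hindbrain the difference was -0.13 ± 0.35 (95% interval -0.84 to 0.58, limma, adjusted p = 0.802). That interval uses a spread common to the 3 groups, of which the Wnt arrays varied most. Fitted to Shh and hindbrain arrays alone, the difference was -0.13 ± 0.12 (limma, adjusted p = 0.432).

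Sfrp4 encodes a relative of Frzb whose loss thins cortical bone in humans and mice. It was dim on 7 of 8 hindbrain arrays, as Frzb was. Its lowest, median and highest values were 5.35, 5.58 and 5.92 on Wnt arrays, 5.15, 6.06 and 7.11 on Shh arrays and 5.10, 5.16 and 5.41 on hindbrain arrays. In each tumour 7 of 8 arrays lay above the highest hindbrain array, and the Shh arrays reached further. Sfrp4 rose by 0.85 ± 0.18 in Shh against hindbrain, 1.81-fold (limma, adjusted p = 0.000654). The difference was 0.42 ± 0.18 in Wnt against hindbrain (limma, adjusted p = 0.067). That test uses a spread common to the 3 groups, and Sfrp4 had SDs of 0.209 in Wnt, 0.632 in Shh and 0.101 in hindbrain arrays. Fitted to Wnt and hindbrain arrays alone, the adjusted p was 0.000499.

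**Figure D2:**
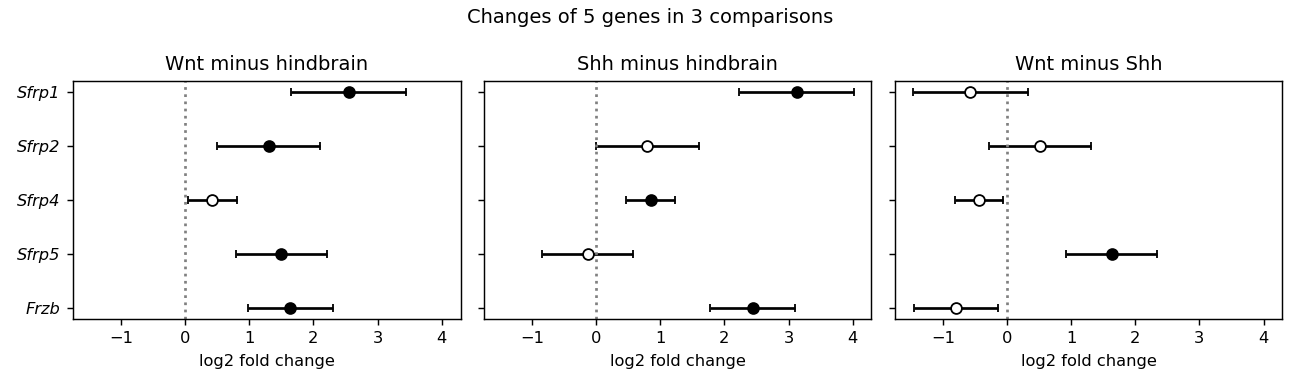
Log2 fold changes (horizontal axis) of the 5 genes for Wnt and Shh arrays, each minus hindbrain, and for Wnt minus Shh; bars are 95% intervals from limma, filled points passed the test and open points did not. Sfrp1 and Frzb are filled in both comparisons with hindbrain, and Sfrp5 alone is filled in Wnt minus Shh (1.63).

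Set against each other, the tumours differed in Sfrp5. In Wnt minus Shh, 1 of 5 members rose and 0 fell, where 18.0% of all genes were called higher and 17.8% lower. Every Wnt array of Sfrp5 (6.25 to 9.69) lay above every Shh array (5.47 to 6.02), as did 5.80% of all genes, and the difference was 1.63 ± 0.35, 3.10-fold (limma, adjusted p = 0.000528). Because both tumours are set against the same hindbrain arrays, this contrast is also the test that the change of Sfrp5 against hindbrain differed between them. Frzb (-0.80 ± 0.32, adjusted p = 0.0553) and Sfrp4 (-0.44 ± 0.18, adjusted p = 0.0685) pointed towards Shh in limma's test without passing it. The 95% intervals were -1.46 to -0.14 for Frzb and -0.81 to -0.06 for Sfrp4. Neither passed when the Wnt and Shh arrays were fitted alone, with limma adjusted p of 0.117 for Frzb and 0.141 for Sfrp4. The exact permutation test of each gene alone gave two-sided, unadjusted p of 0.0726 for Frzb and 0.0838 for Sfrp4. Both passed with quantile normalization, with adjusted p of 0.0448 for Frzb and 0.0483 for Sfrp4. Frzb also passed without Shh replicate 2 (-0.93) or Wnt replicate 2 (-0.91), 4 (-0.92), 5 (-0.95) or 8 (-0.90), and Sfrp4 without Shh replicate 2 (-0.51), 3 (-0.56) or 5 (-0.50). For Sfrp1 the difference was -0.58 (95% interval -1.47 to 0.32) and for Sfrp2 0.51 (-0.29 to 1.31), so differences of over 2-fold in favour of Shh for Sfrp1, or of Wnt for Sfrp2, lay within the intervals.

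Promoter windows were read for the members whose entries were found in the RefSeq promoter table (GRCm38.p6), namely Frzb, Sfrp2 and Sfrp5 (3 of 5). They are shown because Wnt and Shh signalling reach genes through TCF/LEF and GLI factors. Each window was the 250 bases before the annotated start, and both strands were searched for the TCF/LEF core words CTTTGA and CTTTGT, which share all letters but the last, and for the GLI core word CCACCCA, which overlaps neither. CTTTGA was found in 13.8%, CTTTGT in 16.5% and CCACCCA in 8.11% of 32851 such windows. The Frzb window held CTTTGA on the opposite strand at bases -95 to -90 from the start, given in capitals, and no other match was found in the 3 windows. The windows of Frzb (chr2:80447397-80447646, minus strand) and Sfrp5 (chr19:42202253-42202502, minus strand) are printed 5′ to 3′ along the gene.
Frzb: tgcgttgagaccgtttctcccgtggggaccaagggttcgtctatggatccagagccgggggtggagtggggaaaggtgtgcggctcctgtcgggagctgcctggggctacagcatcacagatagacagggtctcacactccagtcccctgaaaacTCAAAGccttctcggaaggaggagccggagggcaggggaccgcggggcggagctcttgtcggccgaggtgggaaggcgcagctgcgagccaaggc
Sfrp5: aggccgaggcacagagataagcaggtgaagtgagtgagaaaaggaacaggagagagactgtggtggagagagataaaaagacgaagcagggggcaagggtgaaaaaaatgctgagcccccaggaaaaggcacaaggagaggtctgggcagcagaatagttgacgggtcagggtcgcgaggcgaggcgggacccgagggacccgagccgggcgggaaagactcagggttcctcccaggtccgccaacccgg
The G and C share was 64.4% in the Frzb, 63.6% in the Sfrp2 and 59.6% in the Sfrp5 window, against a median of 52.4% over all windows. The Frzb and Sfrp2 windows held 16 CG pairs each and the Sfrp5 window 13, against a median of 6. All 3 windows were thus richer in CG pairs than the median window.

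The spread between arrays of a group, given as a description, differed by member. The range from the lowest to the highest array of Sfrp1 spanned 6.91-fold in Wnt, 10.8-fold in Shh and 3.85-fold in hindbrain arrays. For Sfrp2 it spanned 9.85-fold in Wnt, 4.61-fold in Shh and 1.56-fold in hindbrain arrays. Sfrp5 spanned 10.9-fold in Wnt arrays, against 1.46-fold in Shh and 1.96-fold in hindbrain arrays, and Frzb 6.86-fold in Wnt, 3.41-fold in Shh and 1.66-fold in hindbrain arrays. Some tumour arrays were extreme in several members. Wnt replicate 3 had the highest Sfrp5 (9.69) and the lowest Frzb (4.86) of its group. Wnt replicate 5 had the lowest Sfrp1 (8.02) and Sfrp2 (6.27) and the highest Frzb (7.64). Among Shh arrays, replicate 3 had the lowest Sfrp1 (7.73), Sfrp2 (6.48) and Sfrp4 (5.15). Shh replicate 2 had the highest Sfrp2 (8.68) and the lowest Sfrp5 (5.47) and Frzb (6.46), and replicate 7 the highest Sfrp1 (11.16) and Sfrp5 (6.02).

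Sfrp1 and Sfrp2 moved together among the Shh arrays. Over the 8 Shh arrays Pearson's r was 0.903 (two-sided exact permutation p = 0.000273, adjusted p = 0.0123 over 90 relations) and Spearman's rho was 0.952 (exact permutation p = 0.00114, adjusted p = 0.0513). Without replicates 3 and 7, the farthest from the Sfrp1 median, r was 0.923. Over the 8 Wnt arrays r was 0.82 (exact permutation p = 0.0165, adjusted p = 0.247) and rho 0.738 (exact permutation p = 0.0458, adjusted p = 0.576), with r = 0.646 without replicates 4 and 5. The relations examined were the 10 pairs of members and each member with the mean of the endothelial, fibroblast, pericyte and astrocyte markers, in each group, and 3 of 90 passed by Pearson's r and 0 by Spearman's rho. At an unadjusted p under 0.05, 8 of 90 passed by Pearson's r.

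**Figure D3:**
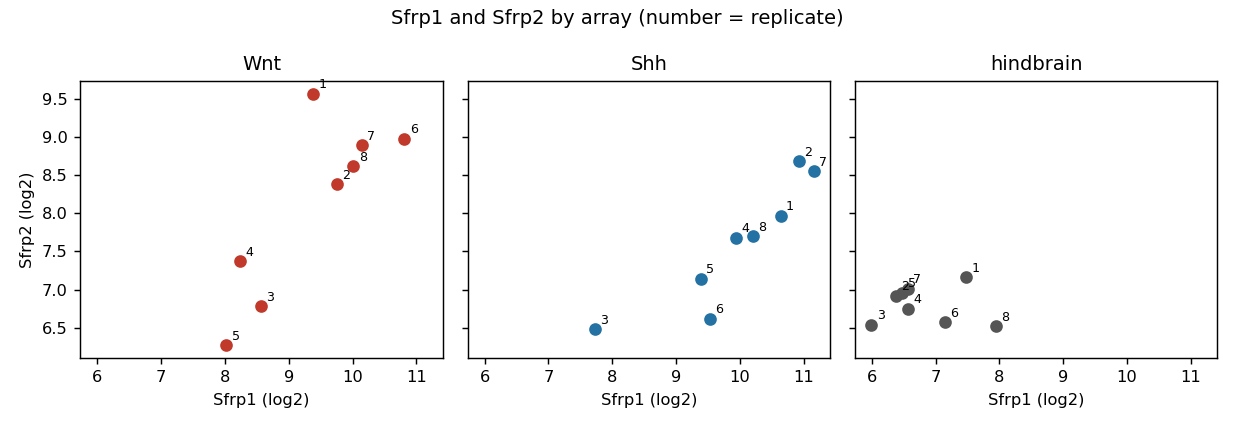
Sfrp1 (horizontal axis) against Sfrp2 (vertical axis), deposited log2 values, with 1 panel each for Wnt, Shh and hindbrain and numbers giving the replicate. On Shh arrays replicate 3 is low in both and replicates 2 and 7 are high in both, and on hindbrain arrays Sfrp2 keeps between 6.52 and 7.16.

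In the same Shh arrays, Sfrp1 and Sfrp2 were high where the endothelial marker mean was low. For that mean and Sfrp1, r was -0.844 (exact permutation p = 0.00136, adjusted p = 0.0409) and rho -0.929 (exact permutation p = 0.00223, adjusted p = 0.067). For the mean and Sfrp2, r was -0.925 (exact permutation p = 0.000223, adjusted p = 0.0123) and rho -0.952 (exact permutation p = 0.00114, adjusted p = 0.0513). Without replicates 6 and 7, r was -0.858 for Sfrp1 and -0.876 for Sfrp2. The endothelial marker mean spanned only 11.29 to 11.73 on these arrays. The mean of the markers of granule neuron precursors and neurons was looked at after the values were seen and was not among the 90 relations. On Shh replicates 7, 2, 1 and 8 it was 9.41, 9.28, 8.91 and 8.88, where Sfrp1 was 11.16, 10.93, 10.64 and 10.21. On Shh replicates 4, 5, 6 and 3 it was 8.81, 8.46, 8.42 and 7.59, where Sfrp1 was 9.94, 9.39, 9.53 and 7.73. Both thus ran in the same order over the Shh arrays, except for replicates 5 and 6. This likeness of order was not tested. On hindbrain arrays the highest Sfrp1 (7.94 and 7.48) and Sfrp5 (6.39 and 6.12) were those of replicates 8 and 1, which also had the highest choroid plexus marker means (9.69 and 9.36). The other hindbrain arrays did not keep this order. Replicate 5 had the next highest choroid plexus mean (8.445), with Sfrp1 of 6.48 and Sfrp5 of 5.58. Replicate 6 had the next highest Sfrp1 (7.14) and Sfrp5 (5.82), with a choroid plexus mean of 7.17. This relation was also looked at after the values were seen, and was not tested. Without hindbrain replicates 8 and 1, Sfrp1 rose by 2.84 in Wnt and 3.42 in Shh against hindbrain, and Sfrp5 by 1.66 in Wnt.

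Markers of other cells moved between the groups beside the members. Against hindbrain, 23.2% of all genes were called higher and 22.0% lower in Wnt arrays, and 18.9% and 18.9% in Shh arrays. Of 16 endothelial markers, 0 rose and 15 fell in Wnt against hindbrain, and 1 rose and 2 fell in Shh against hindbrain. Their mean ran from 9.92 to 11.10 on Wnt, 11.29 to 11.73 on Shh and 11.36 to 11.71 on hindbrain arrays. Of 10 fibroblast markers, 8 rose and 0 fell in Wnt and 8 rose and 1 fell in Shh arrays against hindbrain, led by Fbln1, a matrix protein, in Wnt (4.10) and by Lum, a small proteoglycan of the matrix, in Shh (2.09), with the collagen chain Col1a1 close to it (2.09). Their mean ran from 8.98 to 10.25 on Wnt, 8.70 to 9.77 on Shh and 7.52 to 8.18 on hindbrain arrays, without overlap between tumours and hindbrain. No endothelial or fibroblast marker had a dim mean in any group.

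Among markers of neural cells, 8 of 10 for granule neuron precursors and neurons rose and 0 fell in Shh arrays against hindbrain, and 2 rose and 2 fell in Wnt arrays. Their mean ran from 6.55 to 7.43 on Wnt, 7.59 to 9.41 on Shh and 6.69 to 7.10 on hindbrain arrays, and the mean of Dcx, a marker of young neurons, was dim in Wnt and hindbrain arrays. Of 10 astrocyte markers, 4 rose and 1 fell in Wnt and 6 rose and 0 fell in Shh arrays, with means from 7.70 to 8.24 on Wnt, 7.78 to 9.11 on Shh and 7.15 to 8.06 on hindbrain arrays. Of 6 choroid plexus markers, 3 rose and 2 fell in Wnt and 0 rose and 3 fell in Shh arrays, with means from 8.14 to 8.90 on Wnt, 6.28 to 8.29 on Shh and 6.72 to 9.69 on hindbrain arrays. Of 10 pericyte markers, 0 rose and 6 fell in Wnt and 1 rose and 1 fell in Shh arrays, with means from 8.12 to 9.96 on Wnt, 10.08 to 10.59 on Shh and 9.70 to 10.81 on hindbrain arrays. Of 9 microglia and macrophage markers 0 rose in either tumour, with 9 fallen in Wnt and 8 in Shh arrays. Of 7 markers of the oligodendrocyte lineage, 0 rose and 4 fell in Wnt and 2 rose and 4 fell in Shh arrays, and of 6 smooth muscle markers, 1 rose and 2 fell in Wnt and 0 rose and 5 fell in Shh arrays. Within groups, no relation of a member with the fibroblast, pericyte or astrocyte mean passed after adjustment. The lowest p among them was that of the pericyte mean and Sfrp2 on hindbrain arrays (r = 0.859, exact permutation p = 0.00595, adjusted p = 0.134). Whether neural, choroid plexus, mural or immune cells had a part in the differences between groups was not tested.

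Fits with marker means as covariates changed several values and calls. The endothelial mean did not overlap between Wnt and hindbrain arrays. With it, the Wnt minus hindbrain difference was 1.09 ± 0.72 for Sfrp1 (limma, adjusted p = 0.342) and -0.56 ± 0.55 for Sfrp2 (adjusted p = 0.561). For Sfrp5 it was 1.51 ± 0.64 (adjusted p = 0.106), so these 3 calls were lost. The Sfrp5 value was close to that of the main fit (1.50 ± 0.35), but its standard error was larger. Frzb in Wnt, and Sfrp1, Sfrp4 and Frzb in Shh against hindbrain, kept their calls in that fit. With the endothelial and fibroblast means together, no rise against hindbrain passed the test, and values in Shh arrays were 1.66 for Sfrp1 (adjusted p = 0.073) and 1.49 for Frzb (adjusted p = 0.0522). Sfrp2 was lower in Wnt than in hindbrain arrays in that fit (-2.65, adjusted p = 0.0258). Of Wnt minus Shh, the Sfrp5 difference was 1.64 ± 0.61 with the endothelial mean (adjusted p = 0.0726), against 1.63 ± 0.35 in the main fit. With both means it was 1.96 ± 0.69 (adjusted p = 0.0603). Sfrp1 (-2.80, adjusted p = 0.00771) and Sfrp2 (-2.04, adjusted p = 0.00556) passed as lower with both means. Group and covariate cannot be told apart well where their ranges do not overlap.

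**Figure D4:**
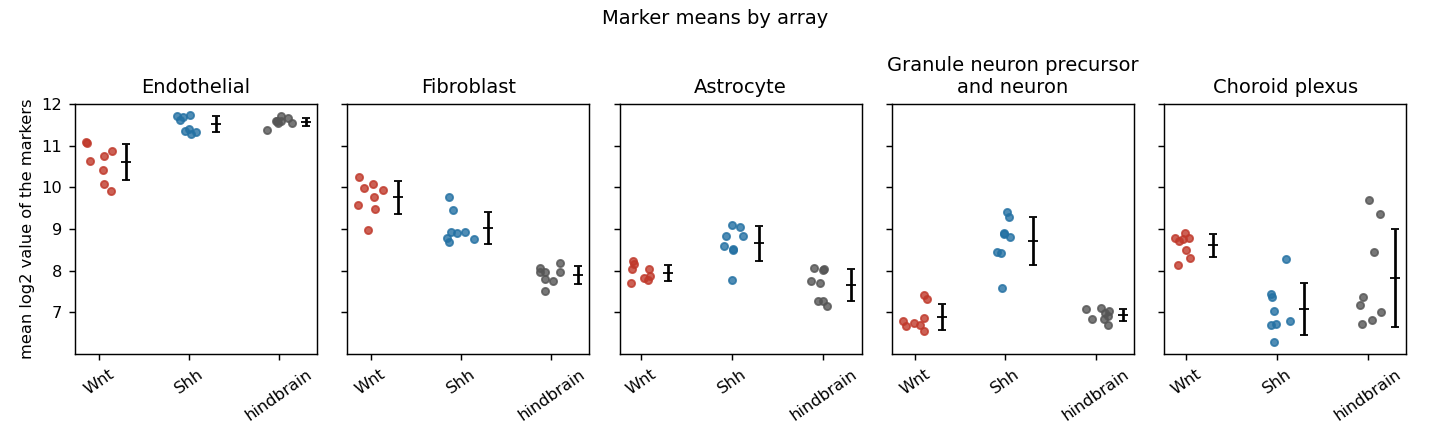
Mean deposited log2 value of 5 marker lists (vertical axis) on each Wnt, Shh and hindbrain array; points are arrays and bars give the mean and SD. Fibroblast means are higher on all tumour arrays (8.70 to 10.25) than on hindbrain arrays (7.52 to 8.18), and endothelial means are lowest on Wnt arrays (9.92 to 11.10).

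Of 13 other secreted Wnt antagonists and their Kremen receptors, 9 rose and 0 fell against hindbrain on Wnt arrays, and their median was 1.81. On Shh arrays 3 rose and 2 fell, and the median was -0.02. Beside the counts of this and the next lists, 23.2% of all genes were called higher and 22.0% lower on Wnt arrays. On Shh arrays 18.9% were called higher and 18.9% lower. Wif1, which binds Wnt ligands, rose by 6.69 ± 0.29 in Wnt (limma, adjusted p = 4.49e-15), and Sostdc1, which binds Wnt co-receptors and BMPs, by 4.45 ± 0.35. In Shh arrays the axon guidance protein Draxin rose by 3.33 ± 0.24 and Dkk3 by 1.20 ± 0.19, and Notum, which removes the lipid of Wnt proteins, fell (-2.26 ± 0.22). In Wnt minus Shh, 9 rose and 1, Draxin, fell, where 18.0% of all genes were called higher and 17.8% lower.

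Wnt ligands are the partners of the family. Of 19, 6 rose and 1 fell in Wnt against hindbrain and 0 rose and 3 fell in Shh. Wnt16 rose by 6.15 ± 0.23 and Wnt5a by 2.10 ± 0.28 in Wnt arrays, and Wnt5b (-0.38 ± 0.089) and Wnt9b (-0.38 ± 0.099) fell in Shh arrays. Of 10 frizzled receptors, 4 rose and 2 fell in Wnt and 2 rose and 2 fell in Shh. The Shh counts were close to the shares over all genes. Fzd10 rose by 5.20 ± 0.19 and Fzd1 by 2.42 ± 0.18 in Wnt, from a dim hindbrain mean for Fzd10, while Fzd6 (-1.48 ± 0.15) and Fzd5 (-0.42 ± 0.15) fell. In Shh arrays Fzd2 (1.35 ± 0.26) and Fzd1 (0.60 ± 0.18) rose and Fzd5 (-0.83 ± 0.15) and Fzd8 (-0.50 ± 0.15) fell.

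Some other proteins carry a frizzled domain too. Of 7 measured, 6 rose in Wnt and 3 in Shh against hindbrain, and 0 fell in either. Ror2, a receptor for Wnt5a, rose by 3.57 ± 0.18 in Wnt and 1.10 ± 0.18 in Shh, and Col18a1, the collagen that yields endostatin, by 1.32 ± 0.13 in Shh. Of 8 co-receptors and cofactors, 2 rose and 4 fell in Wnt and 2 rose and 2 fell in Shh. The rises in both tumours and the falls in Shh were close to the shares over all genes. Wls, which carries Wnt proteins to the cell surface, rose by 1.93 ± 0.11 in Wnt and 0.34 ± 0.11 in Shh. Adgra2 (-0.99 ± 0.13 in Wnt) and Reck (-0.60 ± 0.18 in Wnt and -1.46 ± 0.18 in Shh), which together pass Wnt7 signals into brain endothelium, fell. Beside them, the median change of the 16 endothelial markers was -0.85 in Wnt and 0 in Shh. Whether these falls differ from that of endothelial markers was not tested.

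Targets and feedback genes of beta-catenin report on signalling through beta-catenin. The Wnt model carries an altered allele of Ctnnb1, which encodes beta-catenin, whereas the family binds Wnt proteins outside the cell. Whether the family dampened any of these genes, and which cells they came from, was not tested. Of 11 measured, 10 rose and 1 fell in Wnt against hindbrain and 3 rose and 3 fell in Shh. Rnf43, which removes frizzled receptors from the surface, rose by 4.31 ± 0.19 and the transcription factor Sp5 by 3.20 ± 0.15 in Wnt arrays, and Lef1 fell (-0.37 ± 0.12). In Shh arrays the receptor Tnfrsf19 (-0.91 ± 0.18) and Axin2, a scaffold of the beta-catenin destruction complex (-0.72 ± 0.12), fell, while Ccnd1, a G1 cyclin, rose by 0.87 ± 0.13. Of 11 genes of procollagen processing and netrin-like domains, 6 rose and 3 fell in Wnt and 4 rose and 4 fell in Shh. Bmp1, the procollagen C-proteinase, rose by 2.36 ± 0.11 in Wnt and 2.07 ± 0.11 in Shh, and Timp1, an inhibitor of matrix proteases, by 3.06 ± 0.22 and 3.48 ± 0.22.

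**Figure D5:**
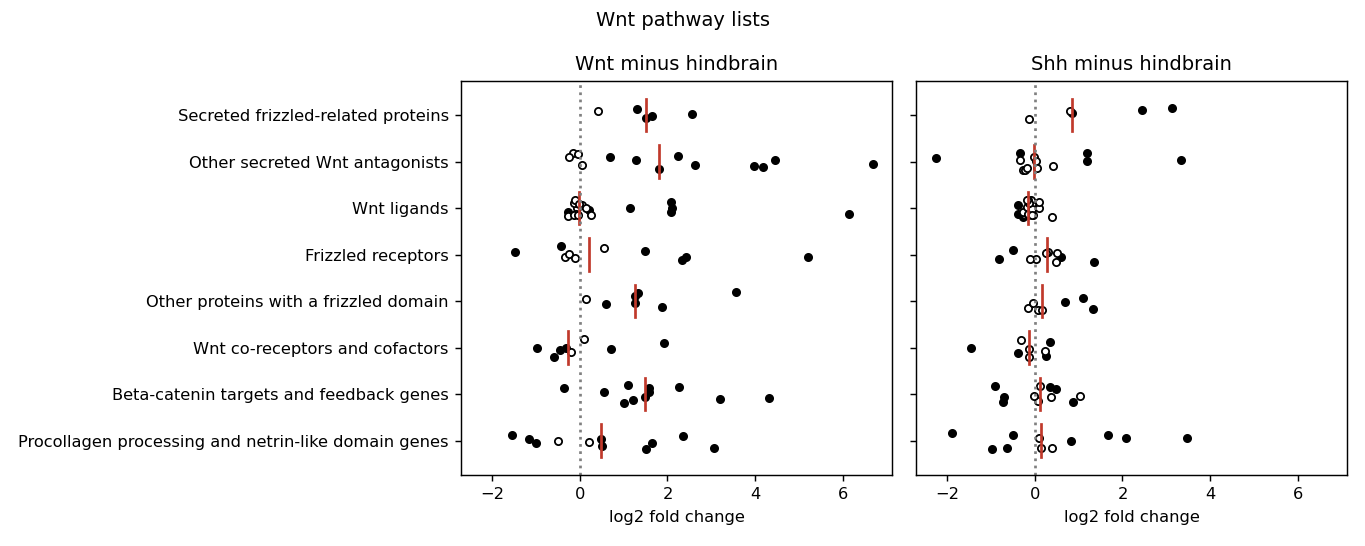
Log2 fold changes (horizontal axis) of the secreted frizzled-related proteins and of 7 other lists for Wnt minus hindbrain (left) and Shh minus hindbrain (right). Beside Wnt pathway genes, the lists hold other proteins with a frizzled domain and genes of procollagen processing and netrin-like domains. Points are genes, filled where limma's test passed, and red lines are list medians. The medians of the family are 1.50 in Wnt and 0.85 in Shh, and those of the other secreted antagonists 1.81 and -0.02.

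The genes whose values followed each member most closely were ranked by Pearson's r over the 24 deviations from group means, among genes with a mean above the dim range. Groups with a wide spread weigh most in such an r, which is a description. For Sfrp1 these were Myb (0.839), Fam171b (0.835) and Efs (0.832), and for Sfrp2 Mmp16 (0.876), Cpxm2 (0.866) and the histone gene H4f16 (0.855), which has near-identical copies. Myb rose in Shh against hindbrain (1.33, limma, adjusted p = 1.82e-05), with 0.34 in Wnt (adjusted p = 0.201), and Mmp16, a membrane-bound matrix protease, rose by 1.20 in Wnt and 1.62 in Shh. For Sfrp5 they were Spock1 (0.891), Tecpr2 (0.847) and Cdhr1 (0.838). Spock1, a proteoglycan, rose in Wnt (1.53, limma, adjusted p = 2.98e-06) and fell in Shh (-0.58, adjusted p = 0.044). For Frzb they were Col26a1 (0.829), Camk2n1 (0.817) and Il13ra1 (0.754), and for Sfrp4 Rprm (0.782), Tecta (0.775) and Cd209d (0.759). No member was among the 3 closest genes of another.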

How the data were processed

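The authors deposited 1 log2 value per probe set and array, as the range of the values shows. Per the submitters' processing notes, Partek 6.6 was used, with no role given. The steps from probes to these values, and the genome build of the array, are not stated in the labels. Deposited values were used as they are. Of 41345 probe sets, 23521 had 1 symbol, 1814 several and 15820 none, beside 190 controls, and probe sets with several or no symbols were left out because they name no single gene. The probe set with the highest mean was kept per gene (22180 genes). limma 3.58.1 (lmFit, eBayes; R 4.3.3) fitted group means to all 24 arrays, which leaves 21 residual degrees of freedom, and p-values were adjusted over all genes. The fit was tested on simulated data. Relations within a group used exact permutation of 8 arrays (40320 orders). No pair of arrays was identical (highest correlation 0.9944). Precision is limited by the number of arrays.

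The labels do not say that replicate numbers pair the samples, and they were not treated as pairs in the main fit. Correlations of same-numbered arrays, over deviations from group means, ran from -0.146 to 0.282. Arrays of different numbers were not compared, so these values cannot decide whether samples were paired. Genes named beside the members were the largest called rises and falls of each list and the 3 genes closest to each member, and the text names part of them. Members and lists were chosen with earlier results of these data known. Alternatives were the probe set choice, 2 normalizations, a filter on dim genes, the variance model, array weights and fits to 2 groups. Further ones were a replicate block, marker means as covariates, leaving out arrays and an exact permutation test of each member alone.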

Additional observations from a re-analysis of the deposited data

Results flagged for a closer look

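Hindbrain replicate 2 had the highest Sfrp4 of its group (5.41), apart from the nearest array at 5.24, with a gap of 0.576 of the group's range, above the 95% critical value of Dixon's test for 8 arrays. Of 15 sets of arrays examined 1 stood out in this way, and chance gives about 1 in 20.

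The change of Sfrp5 against hindbrain differed between the tumours, with 1.63 ± 0.35 in Wnt minus Shh (limma, adjusted p = 0.000528), the Wnt value being higher on 8 of 8 arrays than on any Shh array.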

How the results depend on the processing

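Of 240 values of the 15 member comparisons with an array left out, 232 kept direction and call, 0 lost a call and 8 gained it, in Wnt minus Shh for Sfrp4 (range -0.56 to -0.28) and Frzb (range -0.95 to -0.55). The replicate block changed no call (Sfrp1 2.55 in Wnt and 3.13 in Shh against hindbrain), nor did the mean of probe sets, a variance trend or leaving out Wnt replicates 1 and 8, without which Sfrp2 was 0.98 in Wnt against hindbrain (adjusted p = 0.0485). The second Sfrp2 probe set gave 0.18 in Wnt against hindbrain and -0.04 in Wnt minus Shh.

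Sfrp4 passed in Wnt against hindbrain with quantile normalization (0.46), array weights (0.44), the groups fitted alone (0.42) and an exact permutation test of the gene alone (0.42, unadjusted p = 0.000311), and Sfrp2 passed in Shh against hindbrain with the last 2 of these (0.80, exact permutation p = 0.0186, unadjusted). In Wnt minus Shh, Sfrp4 passed with quantile normalization (-0.44), array medians made equal (-0.46) and array weights (-0.52), and Frzb with these (-0.82, -0.82, -0.93) and without dim genes (-0.80). The cause of these gains was not tested.

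With the endothelial mean as a covariate, calls were lost in Wnt against hindbrain for Sfrp1 (1.09), Sfrp2 (-0.56, reversed) and Sfrp5 (1.51), and in Wnt minus Shh for Sfrp5 (1.64), while Sfrp2 was -1.25. The remaining settings, like the exact permutation test of each gene alone, were chosen after seeing the data. Without hindbrain replicates 1 and 8, Sfrp5 was 0.02 in Shh against hindbrain. With the endothelial and fibroblast means, Wnt against hindbrain gave -1.14 for Sfrp1, -2.65 for Sfrp2, -0.60 for Sfrp4, 2.34 for Sfrp5 and 0.64 for Frzb, Shh against hindbrain 1.66, -0.60, 0.27, 0.38 and 1.49 in the same order, and Wnt minus Shh -2.80 for Sfrp1, -2.04 for Sfrp2 and 1.96 for Sfrp5. The cause was not tested.

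Without the arrays farthest from the median, none of the 3 relations among Shh arrays passed after adjustment (r = 0.923, -0.858 and -0.876). For the pair with the endothelial mean the unadjusted exact permutation p was 0.00139, the smallest that 6 arrays can give. Dim hindbrain values limit what can be said of the size of the Frzb and Sfrp4 changes. Sfrp5 carries a like limit, with means of 5.79 on hindbrain and 5.66 on Shh arrays, not far above the dim range.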
